A study of Canis lupus familiaris with 20 samples.

Results

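CTSS, NPC2 and ATP6V0E1 are 3 genes of the lysosome, and their expression was followed in canine mammary cancer cells and in macrophages before and after both cell types had been grown together. They were found by matching the accession of every probe to a gene symbol, which gave 1 probe each for CTSS (NM_001002938, A_11_P0000019666) and NPC2 (NM_001003242, A_11_P050371) and 2 probes for ATP6V0E1 (NM_001003128, A_11_P0000019849 and the dimmer A_11_P052751). These are 4 of the 43603 probes on the array and 3 of the 1045 genes to which a symbol could be given. The study had named the 3 genes from these same arrays, so their direction in the cancer cells is not independent evidence.

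Cathepsin S (CTSS) is a cysteine protease of the endosomes and lysosomes of antigen-presenting cells. It trims the invariant chain from class II molecules of the major histocompatibility complex, and unlike most of its relatives it stays active at neutral pH. NPC2 is a small soluble protein of the lysosomal lumen that binds cholesterol and hands it to the membrane protein NPC1. ATP6V0E1 is a small subunit of the membrane sector of the vacuolar ATPase, the proton pump that acidifies the lysosome and so sets the conditions in which the cathepsins and lipid hydrolases work. Macrophages are cells with a large lysosomal compartment.

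The cancer cells were 5 canine mammary lines. CMT-W1 and CMT-W2 came from adenocarcinomas, CMT-U27 from a simple carcinoma and P114 from an anaplastic cancer, while CMT-U309 came from a spindle-cell tumour. The macrophages were CD64-positive monocytes sorted from dog blood, which had matured only in part by the end of the culture. Cancer cells stained with the dye CMTMR were grown with these monocytes for at least 72 h, and stained cancer cells and unstained macrophages were then sorted from each co-culture. Sorted cancer cells were hybridised against the same line in mono-culture, and sorted macrophages against mono-cultured macrophages. Every population took 2 dual-colour Agilent arrays with exchanged dyes, which made 20 arrays. Both arrays of such a dye-swap pair were taken to carry the same RNAs and counted as 1 replicate, so n = 5 co-cultures for each cell type. The co-cultured cells had been trypsinised and sorted, while the mono-cultures were scraped and not sorted, so culture and harvest cannot be told apart. How many separate macrophage mono-cultures were used is not stated, and the errors may leave out their spread. Each line gave 1 co-culture, so line and co-culture cannot be told apart.

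The labelled cell types were checked against the 15 listed macrophage markers that could be matched by symbol, among them CD163 and the Fc receptor FCGR1A. In mono-cultured macrophages all 15 were well above background on all 10 arrays, and their summed normalized signal was 811506 to 1060600. In mono-cultured cancer cells the sum was 4284 to 41122. In the sorted, co-cultured cancer cells it was 18006 to 694350, and the highest value was that of CMT-U27. In the sorted, co-cultured macrophages it had dropped to 82734 to 310322. Of the 14 markers tested in the cancer cells 13 rose, where 6.52% of all genes tested did. Of the 15 tested in the macrophages 14 fell, where 28.1% of all genes tested did. The summed signal of the 3 epithelial markers so matched was 5783 to 20975 in mono-cultured cancer cells, which overlapped with 4949 to 6618 in mono-cultured macrophages. That of the 4 mesenchymal markers was 13194 to 49986 and 6051 to 8069, without overlap. In co-cultured macrophages the mesenchymal sum was 7032 to 66051. Of these 4 markers only CAV1, a protein of membrane caveolae, passed the test there, with a rise of 5.83 on the log2 scale (adjusted p = 7.08e-05, limma). The other 3, COL1A1 (0.37), COL1A2 (0.60) and PDGFRB (0.07), did not. No defining marker was below background on all arrays of any culture. The part of these markers' cells in the results for CTSS, NPC2 and ATP6V0E1 was not tested, and in such bulk samples fewer cells of a type and less RNA per cell cannot be told apart. One array stood apart for its spots, that of CMT-U309 cancer cells with the co-culture in Cy5, on which 9870 of 45220 spots carried an outlier mark against 6 to 1438 on the others. None of the 4 probes carried such a mark there or elsewhere.

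All 3 genes were higher in the cancer cells sorted from the co-cultures than in the same lines grown alone. The log2 ratio, co-cultured over mono-cultured cells, averaged 5.92 ± 0.70 (SD, n = 5) for CTSS, which is a 60.7-fold rise. The means of NPC2 and ATP6V0E1 were 2.34 ± 0.87 and 2.28 ± 0.65, or 5.07-fold and 4.86-fold. All 3 passed limma's test adjusted over the 23115 genes tested, of which 6.52% were called as higher. Other processing, or another test, ended some of these calls. After normexp background correction and loess the adjusted p by limma was 0.0544 for NPC2 and 0.0506 for ATP6V0E1. CTSS stayed just under the threshold there (adjusted p = 0.0496, limma), with a lower log2 ratio of 4.57 (SE 0.51). By the methods' t-test it was 0.1405 for CTSS, 0.667 for NPC2 and 0.581 for ATP6V0E1. That test is unpaired, so it leaves out that each line was set against its own mono-culture. Its mean for CTSS was the same 5.92, with a standard error of 1.40.

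The log2 ratio of CTSS was 6.53 in CMT-U27, 5.28 in CMT-U309, 5.68 in P114, 5.32 in CMT-W1 and 6.81 in CMT-W2. The lowest and the highest line lay only 1.52 apart, a small range beside the size of the change. Its standard error was 0.30 and its adjusted p 0.000369 by limma, with a 95% confidence interval of the fold from 37.5 to 98.3. On the log2 scale this interval began at 5.23, above the 4.57 found after normexp and loess. The size of the rise thus depended on the processing. On single arrays it ran from 4.92 to 7.40, so CTSS was at least 3-fold higher on 10 of 10 arrays, which 0.757% of the genes tested reached.

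NPC2 had log2 ratios of 2.96 in CMT-U27, 1.90 in CMT-U309, 1.07 in P114, 2.56 in CMT-W1 and 3.22 in CMT-W2. P114 stood lowest, and both of its arrays (1.15 and 0.99) were below a 3-fold change, so 8 of 10 arrays passed that limit. The standard error was 0.34 and the adjusted p 0.0128 by limma, with a fold of 2.92 to 8.80 as the 95% confidence interval.

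ATP6V0E1 had log2 ratios of 2.95 in CMT-U27, 2.96 in CMT-U309, 2.16 in P114, 1.67 in CMT-W1 and 1.67 in CMT-W2 by its brighter probe (SE 0.28, adjusted p = 0.00745, limma). Its change was at least 3-fold on 9 of 10 arrays. The dimmer probe gave a lower mean of 1.57 ± 1.07 (SD, n = 5, adjusted p = 0.0433, limma, with every probe tested on its own). It read 2.49, 2.44, 1.81 and 1.17 in CMT-U27, CMT-U309, P114 and CMT-W2, but -0.08 in CMT-W1. The 2 probes thus disagreed in CMT-W1, where the brighter one showed a rise on both arrays and the dimmer one showed none.

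Within each line the ratio of CTSS exceeded that of the other two genes. It was higher than NPC2 in 5 of 5 lines, by 3.58 ± 0.67 on the log2 scale (SD), and higher than ATP6V0E1 in 5 of 5, by 3.64 ± 1.00. NPC2 and ATP6V0E1 had no common order, since NPC2 was the higher one in 3 lines and the lower one in 2 (mean difference 0.06 ± 1.17).

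**Figure D1:**
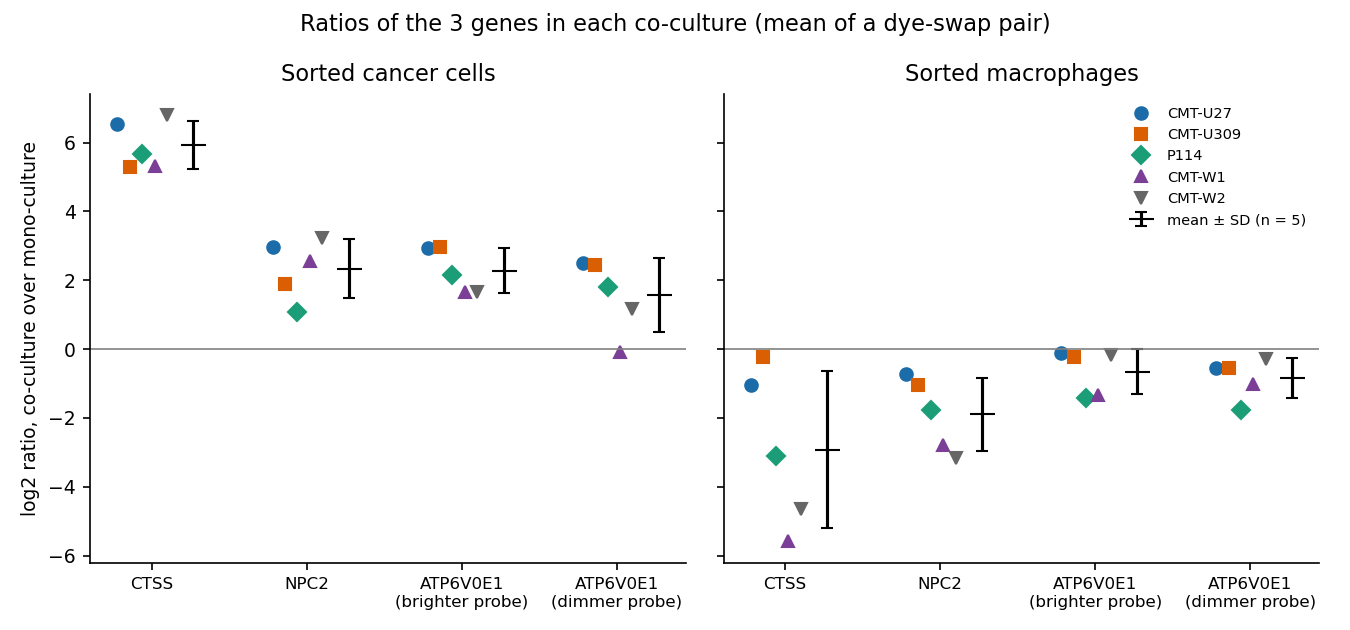
Log2 ratio, co-cultured over mono-cultured (y axis), for each of the 4 probes (x axis) in sorted cancer cells (left) and sorted macrophages (right). Each symbol is 1 co-culture, named by its cancer line (mean of a dye-swap pair), and the bar is the mean ± SD of the 5. The cancer cell values lie above 0 except for the dimmer ATP6V0E1 probe in CMT-W1 (-0.08), and all macrophage values lie below 0, from -0.11 to -5.59.

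In the sorted macrophages the same genes were lower than in macrophages grown alone, and they differed in how far. The log2 ratio of CTSS averaged -2.92 ± 2.29 (SD, n = 5, adjusted p = 0.0162, limma), or a 7.59-fold drop, and that of NPC2 -1.90 ± 1.07 (adjusted p = 0.00676), or a 3.73-fold drop. The brighter probe of ATP6V0E1 had a mean of -0.66 ± 0.66 and did not pass the test (adjusted p = 0.0968). In the macrophages 28.1% of the 24233 genes tested were called as lower, so 2 of 3 members is to be read against a large share. The median log2 ratio of all genes tested was -0.17 here and -0.03 in the cancer cells. The mean of ATP6V0E1 (SE 0.29) lay below the macrophage median, and that gap was not tested.

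The spread of CTSS between the macrophages was the widest of the 3. Its log2 ratio was -0.23 in those grown with CMT-U309, -1.03 with CMT-U27, -3.12 with P114, -4.64 with CMT-W2 and -5.59 with CMT-W1. The macrophages from CMT-U309 were thus near their mono-culture level (1.17-fold lower), and those from CMT-W1 were 48.2-fold lower. The arrays of a dye-swap pair differed by 0.08 to 0.46 only, less than the co-cultures did. No gene of the 3 was at least 3-fold lower on all 10 arrays (CTSS and NPC2 on 6 each, ATP6V0E1 on 0 by its brighter probe), which 1.92% of the genes were. Without CMT-W2 the mean of CTSS was -2.49 and its adjusted p 0.0509.

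NPC2 was lower in all 5 macrophage populations. Its log2 ratio was -0.71 with CMT-U27, -1.05 with CMT-U309, -1.76 with P114, -2.80 with CMT-W1 and -3.17 with CMT-W2. As with CTSS, the macrophages from CMT-U27 and CMT-U309 were the least lowered and those from CMT-W1 and CMT-W2 the most.

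ATP6V0E1 followed another order. By its brighter probe it was -0.11 with CMT-U27, -0.24 with CMT-U309 and -0.17 with CMT-W2, but -1.42 with P114 and -1.34 with CMT-W1. These last 2 populations were hybridised on 1 slide, and the other 3 populations, on other slides, had a mean of -0.17. The dimmer probe gave -1.76 with P114, -1.03 with CMT-W1 and -0.28 to -0.55 with the other lines, and it passed the test when every probe was tested on its own (mean -0.83 ± 0.58, adjusted p = 0.0376, limma). Slide and co-culture cannot be told apart for any of the 3 genes. On the slide of P114 and CMT-W1 the means were -4.36 for CTSS and -2.28 for NPC2, against -1.97 and -1.65 on the others. CMT-U309 and CMT-W2, at -0.23 and -4.64 for CTSS, also shared a slide.

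The ratios of both cell types were then compared directly. Macrophages minus cancer cells, the difference was -8.85 on the log2 scale for CTSS (SE 0.91, 95% confidence interval -10.84 to -6.85, adjusted p = 5.71e-05, limma). It was -4.24 for NPC2 (-5.46 to -3.02, adjusted p = 0.000237) and -2.94 for ATP6V0E1 (-3.84 to -2.03, adjusted p = 0.000359). All 3 were among the 17.1% of the 24896 genes tested whose ratio was lower in the macrophages. Both populations of a co-culture came from the same co-culture, and with the co-culture as a block the adjusted p-values stayed below 0.05.

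Most slides held arrays of 1 cell type only. On the single slide with both types, CMT-W1 cancer cells and the macrophages from CMT-U27, the ratios were 5.32 and -1.03 for CTSS, 2.56 and -0.71 for NPC2 and 1.67 and -0.11 for ATP6V0E1. The directions were those of the whole set. On the CMT-W1 array with the co-culture in Cy5, the mono-culture signals of CTSS and NPC2 were not well above background, so these 2 cancer cell ratios rest in part on a dim signal. With the slide as a fixed block, which rests on that slide alone, the differences were -6.35, -3.28 and -1.78 and none was called (adjusted p = 0.254, 0.349 and 0.418, limma). No gene was called in that fit, against 3460 at an unadjusted p under 0.05.

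The levels of the 4 cultures were read from single channels, normalized across all arrays and averaged over a dye-swap pair. They place the mono-cultured macrophages highest and the mono-cultured cancer cells lowest for all 3 genes, with the sorted populations in between. The log2 signal of CTSS was 8.77 ± 1.60 (SD, n = 5) in mono-cultured cancer cells, 14.70 ± 1.91 in co-cultured cancer cells, 13.95 ± 2.10 in co-cultured macrophages and 16.87 ± 0.22 in mono-cultured macrophages. In the mono-cultured cancer cells it was well above background on 9 of 10 arrays, the exception being an array of CMT-W1.

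NPC2 showed the same order of levels at its ends. Its log2 signal was 9.32 ± 1.53 in mono-cultured cancer cells (well above background on 9 of 10 arrays), 11.66 ± 1.49 in co-cultured cancer cells, 11.79 ± 0.96 in co-cultured macrophages and 13.69 ± 0.12 in mono-cultured macrophages. ATP6V0E1 was well above background on all arrays in all 4 cultures, and its log2 signals were 12.63 ± 1.29, 14.91 ± 1.66, 15.53 ± 0.56 and 16.19 ± 0.20 in the same order. No spot of these probes was saturated.

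In mono-culture the macrophages exceeded the cancer cells by 8.10 on the log2 scale for CTSS (274-fold, adjusted p = 4.54e-06, limma), by 4.37 for NPC2 (20.6-fold, adjusted p = 0.000285) and by 3.56 for ATP6V0E1 (11.8-fold, adjusted p = 0.000443). All 3 were among the 20.2% of 23282 genes called higher in macrophages. The 5 and 5 values did not overlap for any of the 3, nor for 32.5% of all genes with complete values. How many separate mono-cultures gave the 5 macrophage values is not stated. If these values shared RNA, the p-values and the lack of overlap count repeated measurements as replicates. Slide and cell type also cannot be told apart in these levels, as most arrays of both types were on different slides.

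Among the cancer cells the levels of the lines were further apart than their ratios for CTSS, NPC2 and the brighter ATP6V0E1 probe, but not for the dimmer one. CTSS alone had co- and mono-cultured cancer cell levels that did not overlap (3.01% of genes), its lowest co-culture lying 1.61 above its highest mono-culture. For NPC2 and ATP6V0E1 they overlapped, because CMT-U27 grown alone (10.92 and 14.04) was above CMT-W1 after co-culture (9.67 and 12.36). Among the macrophages the levels of CTSS and NPC2 did not overlap between cultures and those of the brighter ATP6V0E1 probe did, where 36.6% of all genes did not.

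After co-culture the sorted macrophages and the sorted cancer cells could not be told apart by these genes. Macrophages minus cancer cells, the level differed by -0.75 for CTSS (95% confidence interval -3.15 to 1.65), by 0.13 for NPC2 (-1.46 to 1.71) and by 0.63 for ATP6V0E1 (-0.94 to 2.20) on the log2 scale, with an adjusted p of 1.00 by limma for each. These intervals still allow several-fold differences in either direction. Of 23505 genes 1 was called (0.00425%), and 0.517% of the genes with complete values had 5 and 5 levels that did not overlap, none of the 3 among them. Most arrays of both cell types were on different slides, so slide and cell type cannot be told apart in these levels.

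**Figure D2:**
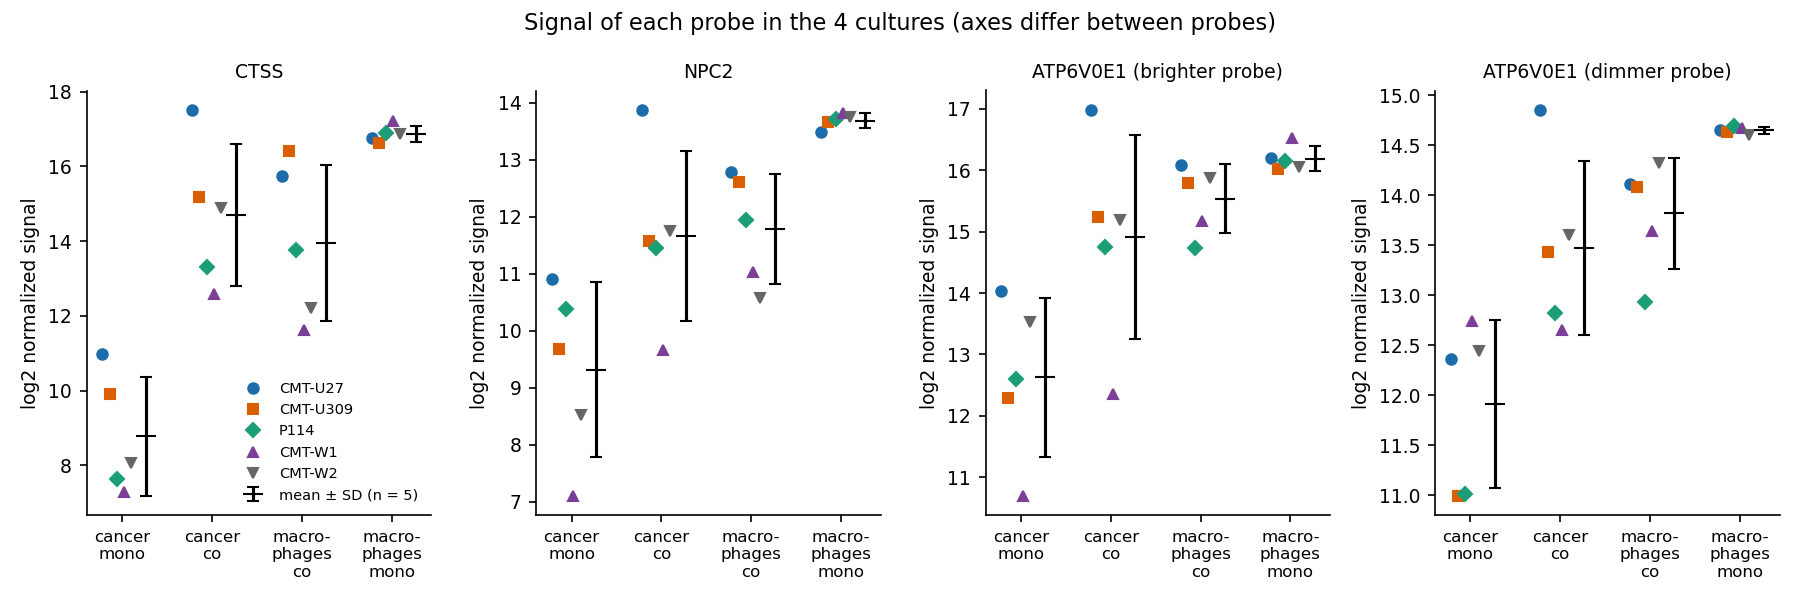
Log2 normalized signal (y axes, which differ between probes) of CTSS, NPC2 and both ATP6V0E1 probes in the 4 cultures (x axis), with 1 symbol per cancer line or co-culture and the mean ± SD of the 5. The mono-cultured macrophages form a tight group, at 16.63 to 17.21 for CTSS, while the co-cultured cells of both types spread widely and overlap.

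The lines differed in how near their cells came to mono-cultured macrophages, whose mean was set to 100%. CTSS reached 156% in co-cultured CMT-U27 cancer cells, 31.1% in CMT-U309, 25.1% in CMT-W2, 8.49% in P114 and 5.16% in CMT-W1, from 0.129% to 1.69% in the lines grown alone. The median of the 15 macrophage markers was 58.4%, 11.6%, 9.42%, 4.76% and 1.98% in these same cells, which is the same order of the 5 lines. In the lines grown alone the marker median was 0.345% to 2.01%. CTSS and the marker median had this same order of lines already there, so the order did not arise in co-culture. Slide and cell type cannot be told apart in these percentages, as in the levels.

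NPC2 stood at 113.9% in co-cultured CMT-U27 cancer cells, at 25.97% in CMT-W2, 23.1% in CMT-U309, 21.3% in P114 and 6.17% in CMT-W1. ATP6V0E1 stood at 174%, 50.1%, 51.9%, 36.8% and 7.02% in these lines. After co-culture each of the 3 genes was above the marker median in 5 of 5 lines. The factor was 1.78 to 2.68 for CTSS, 1.95 to 4.47 for NPC2 and 2.97 to 7.73 for ATP6V0E1. In the lines grown alone NPC2 was at 1.04% to 14.6% and ATP6V0E1 at 2.21% to 22.5%, in each line above the marker median. CTSS was below that median in each line grown alone. The median log2 ratio of the 14 markers tested was 3.40, above the means of NPC2 and ATP6V0E1 and below that of CTSS. CMT-U27 had the highest percentage for each of the 3 genes and for the markers. Without it the mean log2 ratios in the cancer cells were 5.77 for CTSS (adjusted p = 0.00381, limma), 2.19 for NPC2 (adjusted p = 0.0413) and 2.11 for ATP6V0E1 (adjusted p = 0.0257).

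In the co-cultured macrophages CTSS was at 72.0% of the mono-culture level with CMT-U309, at 45.4% with CMT-U27, at 11.7% with P114, at 3.96% with CMT-W2 and at 2.63% with CMT-W1. The marker median was 23.6%, 17.4%, 6.51%, 5.11% and 5.19% there, so CTSS lay above it in 3 populations and below it in 2. NPC2 was at 11.6% to 53.2% and ATP6V0E1 at 36.5% to 93.5%, and both lay above the marker median in 5 of 5. ATP6V0E1 was 3.20 to 15.74 times the marker median, the largest gap being that with CMT-W2.

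**Figure D3:**
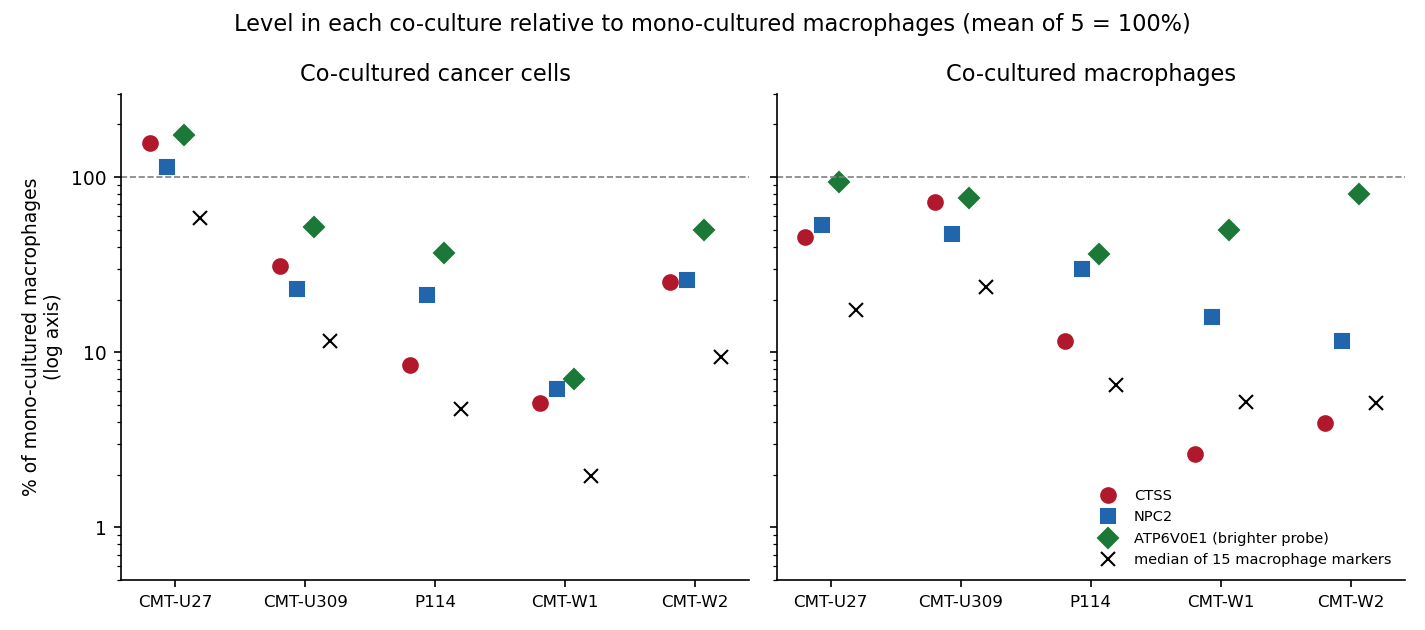
Level of CTSS, NPC2, ATP6V0E1 (brighter probe) and the median of 15 macrophage markers as a percentage of the mean of 5 mono-cultured macrophage values (y axis, log scale; dashed line at 100%) in co-cultured cancer cells (left) and co-cultured macrophages (right) of each co-culture (x axis). CMT-U27 cancer cells stand highest, with a marker median of 58.4%, and in the macrophages from CMT-W1 and CMT-W2 CTSS (2.63% and 3.96%) lies below the markers while ATP6V0E1 does not.

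Other lysosomal genes were read as 5 lists written down by name, of which 22 genes besides the 3 were matched by symbol. Most probes have no symbol here, so the array may hold more of them. In the cancer cells 9 of the 21 tested rose and 0 fell, with a median log2 ratio of 1.20 against -0.03 over all genes. In the macrophages 13 of 22 fell and 0 rose, with a median of -1.17 against -0.17. Of all genes tested 6.52% were called higher in the cancer cells and 28.1% lower in the macrophages. Without CMT-U27, 5 of 20 rose in the cancer cells (median 0.61). After normexp background correction and loess none of the 21 was called in the cancer cells (median 0.65), where only 57 of 23111 genes were. In the macrophages 11 of 22 were called after it, and 9620 of all 24228 genes. Without a filter on dim probes 5 of 22 rose in the cancer cells, and after normexp and median centring 8 of 22 fell in the macrophages. By the methods' t-test 0 of 21 were called in the cancer cells. That test called 0 of all 23113 genes there, so its count says nothing about the lists.

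Among the cathepsins all 5 matched by symbol, of 15 listed, rose in the cancer cells and fell in the macrophages. Of all genes tested 6.52% rose and 28.1% fell there, respectively. CTSK, a collagen-degrading cysteine protease best known from osteoclasts, was nearest to CTSS in size, with 4.94 ± 1.02 (SD, n = 5, adjusted p = 0.00113, limma) in the cancer cells and -3.11 ± 2.43 (adjusted p = 0.0158) in the macrophages. CTSC, which activates serine proteases of immune cells, was at 3.09 ± 1.71 and -1.80 ± 1.27. The carboxypeptidase CTSA was at 2.32 ± 0.95 and -2.003 ± 1.29, and the aspartic protease CTSD at 1.79 ± 0.95 and -2.13 ± 0.90. The ratio of each of the 5 was lower in the macrophages than in the cancer cells by the test of the difference. Without CMT-U27, or without a filter on dim probes, the count in the cancer cells was 3 of 5, after normexp and loess it was 1 (CTSS), and by the methods' t-test 0. In the macrophages it was 2 of 5 without that filter.

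For lipid handling, NPC1, the membrane partner of NPC2, moved as NPC2 did in the cancer cells. Its log2 ratio was 2.18 ± 0.95 (adjusted p = 0.0154, limma) there and -1.13 ± 0.90 (adjusted p = 0.0311) in the macrophages. ARSA, which removes sulfate from sulfatides, and the phospholipase PLA2G15 fell in the macrophages (-1.81 ± 0.93 and -0.91 ± 0.73), but were at 0.55 ± 0.77 and 0.20 ± 0.52 in the cancer cells and did not pass the test. GALC, a galactosylceramidase, did not meet the signal filter for a test in the cancer cells and did not pass in the macrophages (-0.04 ± 0.70). The difference of its ratios, macrophages minus cancer cells, did pass (-1.57, adjusted p = 0.0330, limma).

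The only other listed vacuolar ATPase gene matched by symbol, ATP6V1G2, encodes a subunit of the cytosolic sector that is best known from neurons. It was not called in either cell type, with -0.14 ± 0.12 in the cancer cells (adjusted p = 0.636, limma) and -0.52 ± 0.57 in the macrophages (adjusted p = 0.144). Of the membrane proteins, SLC11A1, a metal ion transporter of phagosomes that is also one of the 15 macrophage markers, rose by 3.13 ± 1.27 in the cancer cells and fell by 3.04 ± 2.49 in the macrophages (SD of the log2 ratio). CLN3, a protein of the lysosomal membrane, was at 1.20 ± 0.87 and -0.98 ± 0.91 and did not pass the test in either. The difference of its ratios did pass (-2.18, adjusted p = 0.00815, limma).

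Of 9 other enzymes and the transcription factor MITF, a relative of the lysosomal regulator TFEB, 3 rose in the cancer cells and 5 fell in the macrophages, where 6.52% and 28.1% of all genes did. PPT1, which removes palmitate from proteins, had 2.72 ± 0.94 (n = 4) and -2.28 ± 0.82, the fucosidase FUCA1 1.47 ± 0.74 and -1.53 ± 0.75 and the peptidase TPP1 1.24 ± 0.49 (n = 4) and -1.41 ± 0.68. GALNS and MITF fell only in the macrophages' test (-1.21 ± 0.22 and -1.66 ± 1.00). For 4 enzymes, GLB1, IDS, SGSH and ARSB, neither ratio nor their difference passed the test, while for GUSB, a glucuronidase, only the difference did (-1.84, adjusted p = 0.0389, limma).

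**Figure D4:**
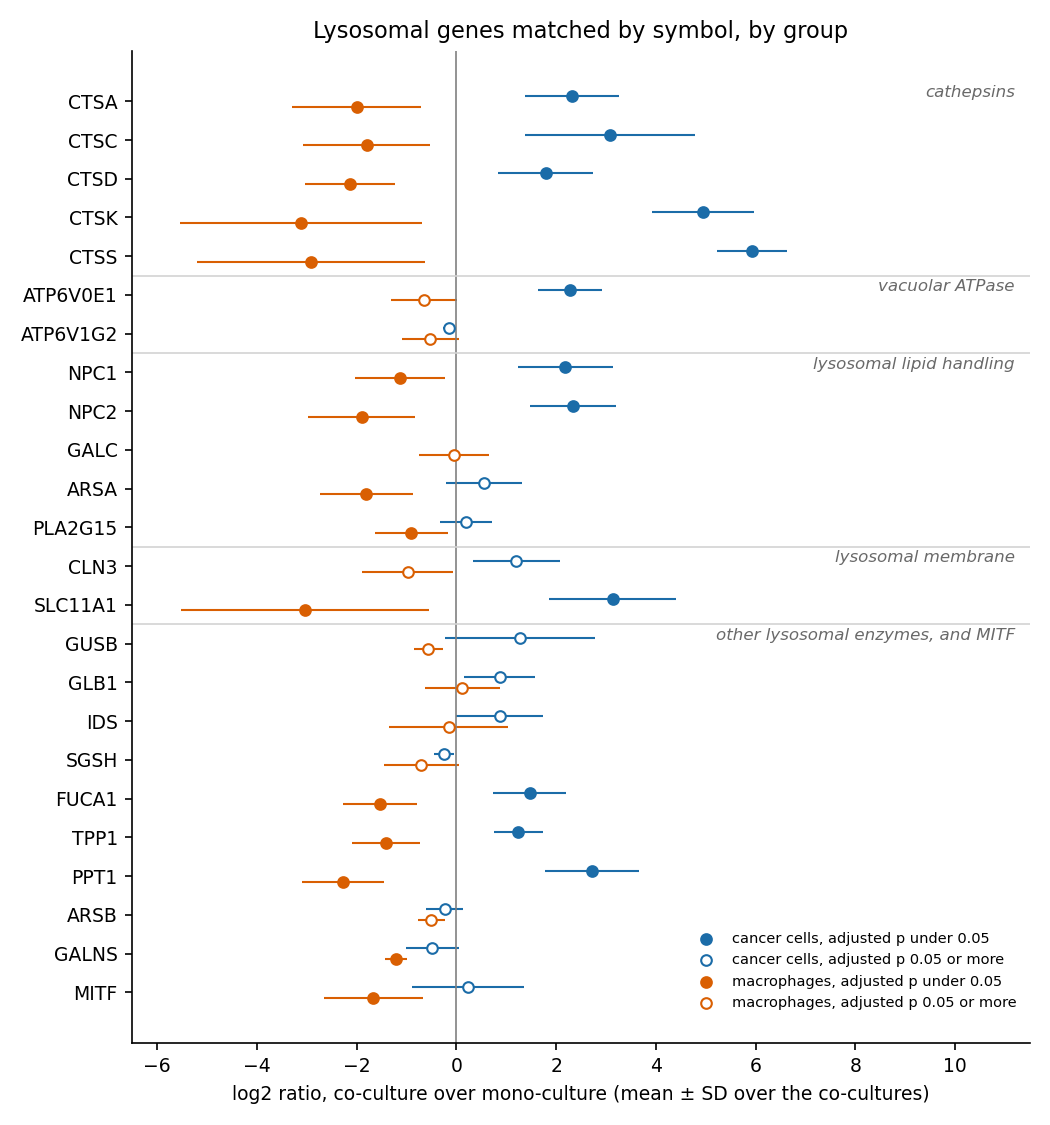
Mean log2 ratio, co-cultured over mono-cultured, ± SD (x axis) for 24 lysosomal genes matched by symbol (y axis), in cancer cells (blue) and macrophages (orange). Filled symbols passed limma's test at an adjusted p under 0.05. The 5 cathepsins carry filled symbols on both sides of 0, whereas ATP6V1G2, GALC, CLN3, GUSB, GLB1, IDS, SGSH and ARSB carry none.

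Cathepsin S acts on the class II pathway, so genes of antigen presentation were set beside it, the 9 matched by symbol of 21 listed. In the cancer cells 8 of 9 rose, where 6.52% of all genes tested did, with a median log2 ratio of 2.40. They included the class II chain DLA-DRA (3.90 ± 1.33), the class I gene DLA-64 (3.26 ± 0.80) and the immunoproteasome subunit PSMB8 (4.84 ± 1.42). In the macrophages, where CTSS fell, 0 of 9 were called in either direction, against 11958 of all 24233 genes. Their median was 0.66. DLA-DRA was at 1.12 ± 2.24 there, with single co-cultures from -2.25 to 3.57, and DLA-64 at 0.02 ± 0.52. The difference between the cell types passed the test for PSMB8, DLA-64 and PSMB9 (-5.85, -3.24 and -2.39), but not for DLA-DRA (-2.78, adjusted p = 0.0506, limma). Without P114, 4 of the 9 were called higher in the macrophages, and 1 was called lower without CMT-W2 and after normexp and median centring. After normexp and loess 0 of 9 were called in the cancer cells, where only 57 of 23111 genes were.

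The genes whose ratios ran closest to those of CTSS over all 10 sorted populations were CTSK, FCGR1A, CCL2, IL1A and CCL8, with a root mean square difference of 1.01, 1.03, 1.17, 1.43 and 1.52 on the log2 scale among 597 genes with a symbol that were tested and measured in all 10. For NPC2 they were CTSA (0.54), TYROBP (0.82), NPC1 (0.88), IL18BP (0.92) and CTSD (1.01). For ATP6V0E1 they were TNFSF10 (0.62), ADORA2A (0.66), CD47 (0.80), NPC1 (0.89) and LGALS9 (0.89). NPC1 was thus among the nearest of both NPC2 and ATP6V0E1, while none of the 3 genes was among the 5 nearest of another.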

How the data were processed

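The authors deposited each array's output of Agilent's Feature Extraction software (version 10.7.3.1 per the labels), which holds spot intensity on a linear scale and a log10 ratio of Cy5 over Cy3 after background correction and dye normalization. Other deposited columns mark outlier spots and spots well above background (0 or 1). The deposited value table equals that log10 ratio up to its sign, within 0.0001. Here ratios were turned to co-culture over mono-culture on the log2 scale, marked spots left out and dye-swap pairs averaged. Probe names came from RefSeq accessions in the UU_Cfam_GSD_1.0 gene table (1648 of 43603 probes); the array's build differs, so no coordinate is given. A gene with several probes was taken by its brightest.

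A gene was tested where, in at least 3 of 5 co-cultures, one of its channels was well above background on the whole dye-swap pair. limma 3.58.1 (R 4.3.3) fitted each cell type's mean and their difference, with Benjamini-Hochberg adjustment over all genes tested and 0.05 as threshold. Levels were Aquantile-normalized processed signals. The number of arrays limits the precision. Percentages of mono-cultured macrophages are ratios of these levels on the log2 scale turned back. The tests were tried on simulated arrays. Files were read with pandas 2.3.3 and numpy 2.4.6 under Python 3.11.15.

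The members and the gene lists were chosen with earlier results of these data known. Genes named are the 3 members, tested genes of the lysosome and antigen lists, the 5 nearest by likeness, and markers that a result turns on. A list of 10 cathepsin inhibitors and processing factors had no gene matched by symbol and was not analysed here. One gene of the lysosomal lists is counted but not reported here. Of the lymphocyte list 3 of 8 genes were matched by symbol, with 0 called in the cancer cells and 2 lower in the macrophages. Of the epithelial list 1 of 2 tested was lower in the cancer cells and 1 of 3 in the macrophages. Of 4 mesenchymal markers 2 were lower in the cancer cells and 1 higher in the macrophages. Of all genes tested 1603 of 23115 were lower in the cancer cells, and 6821 of 24233 lower and 5137 higher in the macrophages. Every value column of the files was matched to a sample. Both populations of a co-culture share the line, so they are paired by design. How far each gene deviated from its group mean correlated between them by 0.52 (CMT-U309), 0.27 (CMT-W1), 0.24 (P114), 0.11 (CMT-W2) and 0.08 (CMT-U27). Cancer cells of CMT-U27 and CMT-W2 correlated more with macrophages of another co-culture (up to 0.14 and 0.15). For CMT-U309, CMT-W1 and P114 such values reached only 0.11, 0.11 and 0.04.

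Alternatives were normexp background correction (offset 50) with loess or median centring, the value table, other filters, outlier spots kept, every probe on its own, single dye orientations, the methods' t-test, a joint fit of both cell types, the slide as a random block, a dye term over 10 arrays, the co-culture or line as a replicate block, other scalings of the levels and each line left out. The slide as a fixed block, the slide with both cell types left out and the lists read under each alternative were added after the data had been seen.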

Additional observations from a re-analysis of the deposited data

Results flagged for a closer look

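All 3 genes had a ratio of co-culture over mono-culture that differed between macrophages and cancer cells when that difference was tested with limma. On the log2 scale, macrophages minus cancer cells, it was -8.85 for CTSS, -4.24 for NPC2 and -2.94 for ATP6V0E1, and in 5 of 5 co-cultures the macrophage ratio of each gene was the lower one. With the slide as a fixed block the values were -6.35, -3.28 and -1.78 and were not called. The macrophage markers moved in the same directions, and their part in these differences was not tested. In no cell type or culture did a single co-culture lie far enough from the other 4 to stand out for any of the 4 probes, with 0.71 as the limit for its gap over the range.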

How the results depend on the processing

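For the 3 genes, 15 results were recomputed under the alternatives, 219 values in all, of which 205 kept their direction and their side of the threshold. Some could hardly do otherwise. The value table holds the same ratios, and keeping outlier spots changed no ratio of these probes, which had none. The levels after co-culture, not called in any fit, are among the 15. After normexp and loess, ATP6V0E1 and NPC2 in the cancer cells were at 2.12 (adjusted p = 0.0506, limma) and 1.66 (adjusted p = 0.0544). By the methods' unpaired t-test the adjusted p-values in the cancer cells were 0.1405 for CTSS (5.92), 0.667 for NPC2 (2.34) and 0.581 for ATP6V0E1 (2.28). No gene was called by it there (0), and 1012 genes had an unadjusted p under 0.01. With the slide as a fixed block the differences between cell types were -6.35, -3.28 and -1.78, not called, and 0 genes were called. ATP6V0E1 in the macrophages was called with a dye term (-0.66, adjusted p = 0.0444) and by its dimmer probe (-0.83, adjusted p = 0.0376). CTSS in the macrophages was not called without a filter on dim probes (-2.92, adjusted p = 0.0731) or without CMT-W2 (-2.49, adjusted p = 0.0509). The NPC2 level after co-culture, not called in any fit, turned to -0.10 without CMT-U309 and to -0.18 without CMT-W1. The cause of these changes was not tested.

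Leaving out each line in turn, the log2 ratios in the cancer cells ranged from 5.70 to 6.08 for CTSS, 2.12 to 2.66 for NPC2 and 2.11 to 2.43 for ATP6V0E1. In the macrophages they ranged from -3.60 to -2.26, -2.20 to -1.58 and -0.79 to -0.47, and the differences from -9.68 to -8.20, -4.59 to -3.70 and -3.21 to -2.78. The levels differed by 7.64 to 8.68, 3.78 to 4.81 and 2.998 to 3.91 in mono-culture and by -1.24 to -0.27, -0.18 to 0.45 and 0.08 to 1.01 after co-culture.

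In the cancer cells 1508 genes were called higher and 1603 lower. The total was 57 after normexp and loess (47 higher, 10 lower), 1803 without a filter on dim probes, 1891 with the co-culture in Cy5 only, 7440 with the slide as a random block, and 568 (without P114) to 2458 (without CMT-W1) with a line left out, 947 without CMT-U27, 1645 without CMT-U309 and 1742 without CMT-W2 among them. After normexp and median centring, which moved the median of all genes from -0.03 to 0.20, the split was 1975 higher and 253 lower. In the macrophages it was 5137 and 6821, against 3347 and 3211 (6558 in all) after normexp and median centring, and 9041 to 12424 were called with a line left out. The difference gave 4212 genes (894 and 3318 against 3662 and 4267) after normexp and median centring and 5392 to 6979 with a line left out. The mono-culture levels gave 5080 (without CMT-W2) to 9479 (without CMT-W1). After co-culture 1 gene was called (662 at an unadjusted p under 0.05), 2 without a filter on dim probes, and 0 to 1 with a line left out, 0 being without CMT-U27. With the co-culture as a replicate block, by the pairing of both populations, the difference gave 8513 genes and the mono-culture levels, blocked by line, 7170. The block changed no call for the 3 genes.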
